A study of Homo sapiens with 4 samples.

Results

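MicroRNA host transcripts are the long RNAs from which microRNAs are cut. Many of those with no coding function of their own, though not all, carry names made of the microRNA and the letters HG. Every gene whose deposited name began with MIR and ended with HG was taken, which gave 57 of the 58174 genes in the table. Of these, 26 had at least 20 counts over the 4 libraries together and are described by their values. A further 13 had 1 to 19 counts and 18 had none. The libraries were long-RNA sequencing of SW1990 and PANC-1, 2 established human pancreatic cancer cell lines, each sequenced as 1 unirradiated library and as 1 library from cells given 10 Gy of X-rays. Both lines were cultured in serum at the same range of passages, each line in its own medium, and the time between radiation and RNA extraction is not given in the sources used here. Reads assigned to genes numbered 17851815 in unirradiated SW1990, 18305682 in irradiated SW1990, 23323266 in unirradiated PANC-1 and 20026595 in irradiated PANC-1. The labels call the RNA rRNA depleted while naming an mRNA library kit, so how well transcripts without a poly(A) tail were captured is not known.

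A microRNA gene is first transcribed as a long primary RNA, from which the nuclear enzyme Drosha with DGCR8 cuts a hairpin and the cytoplasmic enzyme Dicer then cuts the mature microRNA. The mature strand sits in an Argonaute protein and pairs with messenger RNAs mainly through its seed, bases 2 to 8, which usually lowers their stability or translation. The level of a host transcript depends on its transcription and on how fast it is processed and degraded, so it is not a measure of the mature microRNA, which these libraries did not capture. Several hosts are well known in cancer cells: the host of miR-34a is a target of p53, that of the miR-17-92 cluster is driven by MYC, and those of miR-200c and miR-194 belong to epithelial cells.

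The mature sequences below belong to the hosts on which the results turn, and are shown to tell apart the hosts whose products share a seed. They are the RefSeq entries on GRCh38.p14, written 5′ to 3′ with the seed in capitals.
miR-194-5p (MIR194-2HG): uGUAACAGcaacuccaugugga
miR-192-5p (MIR194-2HG): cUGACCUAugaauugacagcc
miR-34a-5p (MIR34AHG): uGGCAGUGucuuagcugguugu
miR-146a-5p (MIR3142HG): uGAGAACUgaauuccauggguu
miR-17-5p (MIR17HG): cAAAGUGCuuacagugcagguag
miR-20a-5p (MIR17HG): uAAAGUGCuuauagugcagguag
miR-221-3p (MIR222HG): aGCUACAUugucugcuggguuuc
miR-222-3p (MIR222HG): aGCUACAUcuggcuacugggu
miR-31-5p (MIR31HG): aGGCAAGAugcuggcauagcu
let-7b-5p (MIRLET7BHG): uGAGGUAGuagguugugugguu
let-7a-5p (MIRLET7BHG and MIR100HG): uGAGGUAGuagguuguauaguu
let-7c-5p (MIR99AHG): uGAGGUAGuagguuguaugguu
miR-100-5p (MIR100HG): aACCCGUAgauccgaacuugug
miR-125b-5p (MIR100HG): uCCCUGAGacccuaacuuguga
miR-200c-3p (MIR200CHG): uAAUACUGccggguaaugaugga
miR-141-3p (MIR200CHG): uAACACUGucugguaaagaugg

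RefSeq placed 73 microRNA genes inside 44 of the 57 hosts on the same strand, 48 of them in an intron, 22 in an exon and 3 across an exon edge. The let-7 seed GAGGUAG was shared by products of MIRLET7BHG, MIR100HG, MIR99AHG and MIR4500HG. The seed ACCCGUA was shared by miR-100-5p of MIR100HG and miR-99a-5p of MIR99AHG. In MIR17HG and in MIR222HG the shared seeds lay in microRNAs of the same host. MIR200CHG gives both miR-200c-3p and miR-141-3p, whose seeds differ from each other.

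Levels are compared between hosts in FPKM, the fragments mapped to a transcript corrected for its length and for the depth of the library. MIR4435-2HG had the highest mean level, 42 FPKM over the 4 libraries, followed by MIRLET7BHG at 34.8 FPKM. The order differed by line, and in both SW1990 libraries MIRLET7BHG was the higher of these. MIR222HG followed at a mean of 9.56 FPKM, MIR31HG at 8.59 FPKM and MIR100HG at 5.87 FPKM. In both PANC-1 libraries MIR31HG and MIR100HG lay above MIR222HG, and in both SW1990 libraries below it. An FPKM of at least 1 was reached by 15 hosts in unirradiated SW1990, 14 in irradiated SW1990, 12 in unirradiated PANC-1 and 14 in irradiated PANC-1. In CPM, counts scaled to a common library total, all hosts together took 268 in unirradiated SW1990 and 212.4 in irradiated SW1990, and 212 in unirradiated PANC-1 and 227.4 in irradiated PANC-1. A pair of transcripts supplied between 44.5% and 53.1% of those counts in each library: MIRLET7BHG with MIR222HG in unirradiated SW1990, and MIRLET7BHG with MIR4435-2HG in the other 3. Of the 26 described hosts, 10 overlapped a gene of at least 20 counts on the same strand, with which counts could be shared, and 15 such a gene on either strand. Counting all microRNA genes, those with fewer counts included, RefSeq placed 1 or more on the same strand in 23 of the 26. By the deposited coordinates MIR22 also lay within MIR22HG and MIR3936 within MIR3936HG, on the same strand. The counting by strand is not given in the sources used here.

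**Figure D1:**
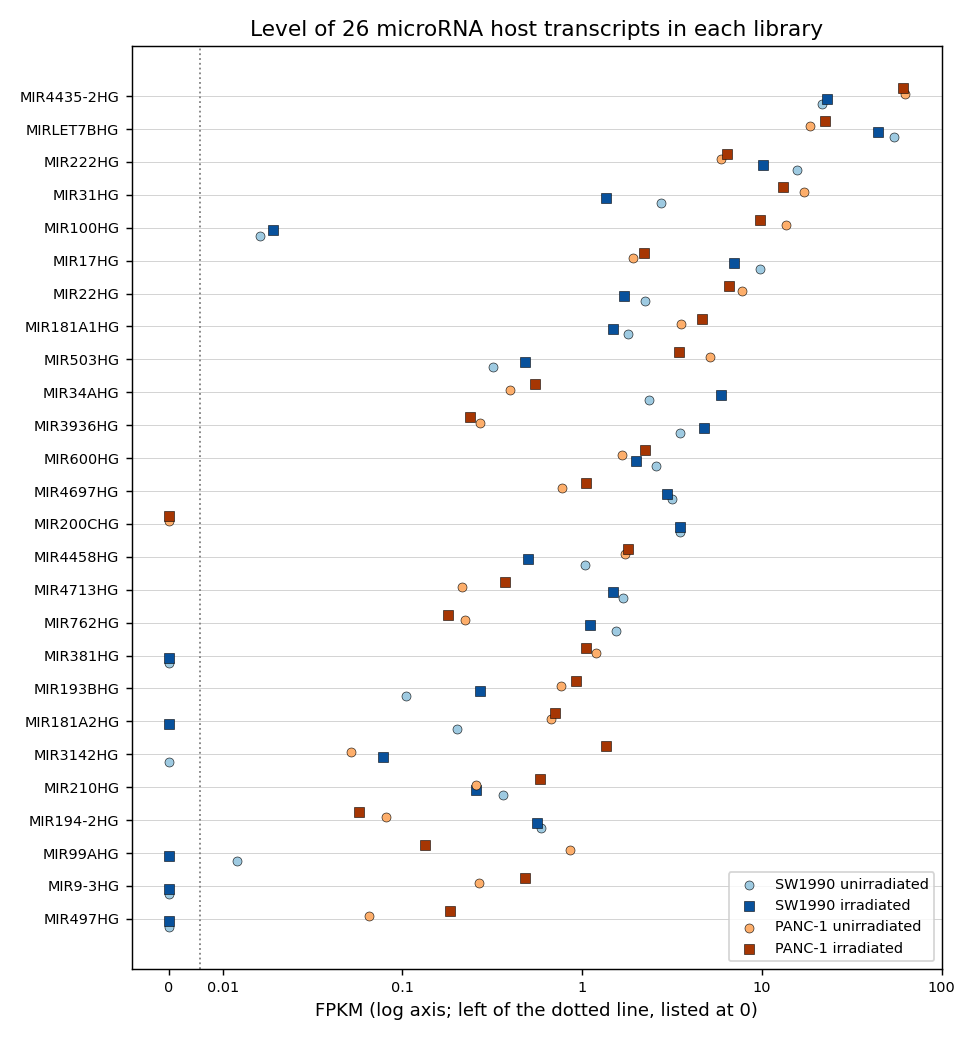
The level of each of the 26 host transcripts with at least 20 counts is plotted in FPKM on a log axis, with 1 point per library and zeros to the left of the dotted line. MIR200CHG was listed at 0 in both PANC-1 libraries, MIR381HG, MIR497HG and MIR9-3HG in both SW1990 libraries, and MIR100HG lay under 0.02 FPKM in SW1990 against 9.82 and 13.6 FPKM in PANC-1.

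The cell lines differed in most of the marker genes of epithelial and mesenchymal cells. CDH1, the epithelial cadherin, was at 140 and 239 FPKM in SW1990 (unirradiated, then irradiated) and at 0.673 and 1.21 FPKM in PANC-1. VIM, a mesenchymal filament protein, had 17 and 0 counts in SW1990 and 82406 and 75166 counts in PANC-1, or 0.626 and 0 FPKM against 1630 and 1650 FPKM. The keratin KRT18 was present in all 4 libraries, from 19834 to 36683 counts, and the keratin KRT19, which was not called by line, from 5490 to 8933. FN1, a matrix protein counted among the mesenchymal markers, had 0 and 25 counts in SW1990 and 8 and 9 in PANC-1. Among genes of other cell types, the blood marker PTPRC had at most 2 counts, and COL1A2 and DCN of fibroblasts had none in any library. COL1A1, a fibroblast collagen, had 103 and 165 counts in SW1990 and 965 and 1315 in PANC-1. CD74, an antigen-presentation chaperone of blood cells, had 397 and 961 counts in SW1990 and 0 and 2 in PANC-1.

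Radiation was asked about within each line by comparing the irradiated with the unirradiated library, and with 1 library of each a test on reads compares those libraries and not the treatments. Changes are log2 ratios of counts after TMM scaling, a correction for composition, and intervals are exact 95% intervals that cover counting error only. A gene was called with a q, an adjusted p, below 0.001 and a change of more than 2-fold. In SW1990 none of the 19 hosts with at least 10 counts in that pair was called, against 4.58% of all genes tested. MIR34AHG was the host that was higher in irradiated SW1990 beyond counting error, and MIRLET7BHG, MIR222HG, MIR17HG, MIR22HG, MIR31HG and MIR600HG were lower. In PANC-1, 1 of 26 hosts tested was called, MIR3142HG, against 5.02% of all genes in either direction and 2.78% called higher.

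MIR194-2HG is the host of miR-194-5p, the exosomal microRNA that the study followed, together with miR-192. It spans chr11:64889560-64893449 on GRCh38, minus strand, and both microRNA genes lie in its exons. Its level was 0.591 FPKM in unirradiated and 0.557 FPKM in irradiated SW1990, from 48 and 46 counts. In PANC-1 it was 0.0813 FPKM unirradiated and 0.0572 FPKM irradiated, from 9 and 6 counts. The host was thus low in every library and lower in both PANC-1 libraries than in either SW1990 library. The log2 change with radiation was -0.04 in SW1990 (95% counting interval -0.66 to 0.57) and -0.45 in PANC-1 (-2.23 to 1.20), so a change was not detectable at this depth in either line. In SW1990 the interval left room for neither a 2-fold rise nor a 2-fold fall, while the PANC-1 interval allowed both.

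The other gene of miR-194, MIR194-1, lies on chromosome 1 within IARS2, the mitochondrial isoleucyl-tRNA synthetase, but on the opposite strand, so the level of IARS2 is not that of a miR-194 primary transcript. IARS2 had 31.9 and 32.9 FPKM in SW1990 and 38.5 and 39.1 FPKM in PANC-1. Its log2 change was 0.10 in SW1990 and -0.06 in PANC-1, and it was not called in either.

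E2F3 and HMGA2 are genes that the study examined beside miR-194-5p. E2F3, a cell cycle transcription factor, had 416 counts in unirradiated and 566 in irradiated SW1990, and 778 and 583 in PANC-1. HMGA2, a chromatin protein, had 1033 and 795 counts in SW1990 and 7540 and 4737 in PANC-1. The log2 change of E2F3 was 0.46 in SW1990 (0.28 to 0.65) and -0.29 in PANC-1 (-0.44 to -0.13), on opposite sides of 0. That of HMGA2 was -0.36 in SW1990 (-0.49 to -0.22) and -0.54 in PANC-1 (-0.59 to -0.49). All 4 changes were below the 2-fold limit, so neither gene was called.

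The hosts linked to damage and stress did not move as one group. MIR34AHG, the host of miR-34a (chr1:9148011-9196983, minus strand), had 218 counts in unirradiated and 365 in irradiated SW1990, or 2.35 and 5.9 FPKM. In PANC-1 it had 49 and 58 counts, or 0.399 and 0.544 FPKM. The log2 change was 0.76 in SW1990 (0.52 to 1.01; q = 4.37e-09 by edgeR's exact test on the reads of the 2 libraries), below the 2-fold limit, and 1.33 as the ratio of FPKM values. In PANC-1 it was 0.37 (-0.20 to 0.95). The SW1990 change minus the PANC-1 change was 0.39 (-0.21 to 0.99), so these counts did not show that the lines differed.

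MIR22HG, the host of miR-22 (chr17:1711493-1717174, minus strand), had 93 and 59 counts in SW1990 and 413 and 293 in PANC-1, unirradiated then irradiated. It was at 2.25 and 1.7 FPKM in SW1990 and at 7.72 and 6.52 FPKM in PANC-1. The irradiated library was the lower in both lines, with a log2 change of -0.64 in SW1990 (-1.13 to -0.15) and -0.36 in PANC-1 (-0.59 to -0.15), neither of them called. WDR81, which overlaps it on the other strand, had a log2 change of 0.15 and 0.27 in the 2 lines. MIR210HG, the host of the hypoxia microRNA miR-210, had only 12 to 16 counts in each library, and its intervals included 0 in both lines.

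The p53 target genes named beside MIR34AHG had different values in the lines, a difference that was not tested for the list as a whole. In SW1990, 3 of 10 were called higher and none lower, against 4.58% of all genes called in either direction, with a median log2 change of 0.65 against 0.02. The intervals of 9 lay above 0, against 26.0% of all genes. CDKN1A, the cell cycle inhibitor p21, went from 1229 to 4002 counts, and the log2 change was 1.72. TP53INP1 and BBC3, both linked to p53-driven cell death, had a log2 change of 1.19 each. In PANC-1 none was called higher, 1 was called lower, against 5.02% of all genes called, and the median was -0.13 against -0.001 over all genes. The intervals of 3 lay above 0 there, those of FDXR, ZMAT3 and MDM2 with log2 changes of 0.66, 0.41 and 0.22, against 24.5% of all genes, and those of 4 lay below 0, against 26.0%. Among these were CDKN1A, from 1282 to 782 counts (log2 change -0.58), and BBC3, from 122 to 65 counts (-0.78). The gene called lower there was GDF15, a stress cytokine, which went from 8563 to 3611 counts. The SW1990 change minus the PANC-1 change was 2.31 for CDKN1A (2.15 to 2.46) and -0.09 for FDXR (-0.42 to 0.24), on counting error alone.

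MIR3142HG gave the largest change of any host in either line. It is the host of miR-146a, a brake on inflammatory signalling that is known to be induced by NF-kB, and of miR-3142, and spans chr5:160468268-160487426 on the plus strand. It had 4 counts in unirradiated and 79 in irradiated PANC-1, and none in unirradiated and 4 in irradiated SW1990. In FPKM these were 0.052 and 1.36 in PANC-1, and 0 and 0.0776 in SW1990. The irradiated PANC-1 library alone stood far above the other 3. The log2 change in PANC-1 was 4.43 (3.02 to 6.35), a 21.6-fold rise with an interval from 8.12 to 81.3, and the q was 7.88e-20 by the exact test on the 2 libraries' reads. The host was called in PANC-1 under every scaling, filter and limit tried, an assumed coefficient of variation of 0.2 between replicates among them. No fold is given for SW1990, where the counts of 0 and 4 lie at or next to the floor of 3 counts.

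The RefSeq promoter of MIR3142HG, chr5:160468001-160468300 on the plus strand of GRCh38.p14, runs from 250 bases before to 50 bases after the start site. It is printed because the host is the 1 called, with the letters of a strong NF-kB site in capitals.
MIR3142HG promoter: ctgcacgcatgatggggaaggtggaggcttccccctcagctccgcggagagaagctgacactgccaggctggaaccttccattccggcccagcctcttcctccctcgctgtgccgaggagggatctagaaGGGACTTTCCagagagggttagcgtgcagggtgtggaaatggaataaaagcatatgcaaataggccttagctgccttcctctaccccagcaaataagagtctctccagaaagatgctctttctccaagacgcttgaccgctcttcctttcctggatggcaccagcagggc

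Searched on both strands, the 10 letters in capitals occurred in 67 of 35116 promoter windows of that length, 0.191%, and among the 44 hosts with a window in MIR3142HG alone, 120 bases before the start site. The p53 half-element, a 10-base motif that allows several letters at most places, was searched in the same way. It occurred in 6.63% of all windows and in 5 of the 59 windows of hosts. These windows belong to 4 of the 44 hosts, MIR100HG, MIR17HG, MIR497HG and MIR99AHG. The window of MIR34AHG held none. A match of letters is not a measurement of binding.

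Of the 4 tested hosts linked to proliferation, 3 were lower in irradiated SW1990 beyond counting error, against 18.8% of all genes, and 1 in irradiated PANC-1, against 26.0%. None was called, against 4.58% of all genes in SW1990 and 5.02% in PANC-1. MIR17HG, the host of the 6 microRNAs of the miR-17-92 cluster (chr13:91347820-91354579, plus strand), had 369 and 233 counts in SW1990 and 88 and 93 in PANC-1. Its level was 9.81 and 7 FPKM in SW1990 and 1.91 and 2.21 FPKM in PANC-1. The log2 change was -0.64 in SW1990 (-0.89 to -0.40) and 0.21 in PANC-1 (-0.23 to 0.65). The SW1990 change minus the PANC-1 change was -0.85 (-1.33 to -0.37), a difference beyond counting error that has no replicate behind it.

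MIR222HG, the host of miR-221 and miR-222 (chrX:45745211-45770274, minus strand), behaved likewise. It had 539 and 333 counts in SW1990 and 263 and 241 in PANC-1, or 15.7 and 10.2 FPKM and 5.91 and 6.4 FPKM. The log2 change was -0.67 in SW1990 (-0.88 to -0.47). In PANC-1 the interval ran from -0.25 to 0.26. The SW1990 change minus the PANC-1 change was -0.68 (-1.0 to -0.36). AC234772.3, a gene within MIR222HG on the same strand, had a log2 change of -0.37 in SW1990 (-0.86 to 0.11). In PANC-1 its change was -0.82 (-1.53 to -0.13), and it was called in neither line. MIR221, also within MIR222HG, had 0.02 in SW1990 and 0.05 in PANC-1, with intervals that included 0. Reads shared with the host could not be told apart.

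MIR31HG, the host of miR-31 (chr9:21455642-21559669, minus strand), was lower in the irradiated library of both lines. It had 45 and 23 counts in SW1990 and 369 and 243 in PANC-1, or 2.74 and 1.35 FPKM and 17.2 and 13.1 FPKM. The log2 change was -0.95 in SW1990 (-1.74 to -0.19) and -0.47 in PANC-1 (-0.71 to -0.23). IFNE, an interferon gene within it on the same strand, had 17 and 18 counts in SW1990 and 122 and 67 in PANC-1. The log2 change of IFNE was 0.10 in SW1990 (-0.94 to 1.15) and -0.73 in PANC-1 (-1.19 to -0.29). Reads shared between IFNE and MIR31HG could not be told apart.

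MIR4435-2HG, a long non-coding RNA linked to tumour growth (chr2:111196350-111495100, minus strand), had 420 and 419 counts in SW1990 and 1458 and 1246 in PANC-1. Its level was 21.6 and 23 FPKM in SW1990 and 62.2 and 61.2 FPKM in PANC-1, the highest of all hosts there. Its log2 change was 0.02 in SW1990 (-0.18 to 0.22) and -0.10 in PANC-1 (-0.21 to 0.01). Both intervals lie well inside a 1.5-fold change. MIR155HG, the host of the immune microRNA miR-155, had 3 counts over all libraries.

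The hosts of let-7 and of the miR-99 and miR-100 family split between the lines. MIRLET7BHG, the host of let-7a-3 and let-7b (chr22:46053869-46113928, plus strand), had 2000 and 1463 counts in SW1990 and 741 and 872 in PANC-1. Its level was 54.4 and 44.1 FPKM in SW1990 and 18.6 and 22.3 FPKM in PANC-1. It was the lower after radiation in SW1990, with a log2 change of -0.43 (-0.53 to -0.33), and the higher in PANC-1, with 0.37 (0.22 to 0.51). Both changes were under 1.5-fold.

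MIR100HG, the host of miR-100, let-7a-2 and miR-125b-1 (chr11:122028327-122556721, minus strand), had 2 and 1 counts in SW1990 and 615 and 420 in PANC-1. The levels in PANC-1 were 13.6 FPKM unirradiated and 9.82 FPKM irradiated, and its log2 change there was -0.42 (-0.60 to -0.24). MIR99AHG, the host of miR-99a and let-7c on chromosome 21, was at or near 0 in SW1990, with 1 and 0 counts, and had 17 and 12 counts in PANC-1. MIRLET7DHG had 1 count over all libraries. The hosts of this family present in quantity were thus MIRLET7BHG in both lines and MIR100HG in PANC-1 alone.

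The hosts of epithelial microRNAs were not seen to move with radiation. MIR200CHG, the host of miR-200c and miR-141, which hold down the mesenchymal factor ZEB1 (chr12:6963246-6964447, plus strand), had 27 and 28 counts in SW1990 and none in PANC-1. Its level in SW1990 was 3.5 and 3.48 FPKM, and the log2 change was 0.07 (-0.74 to 0.89). ZEB1 itself had 14 and 66 counts in SW1990 and 1394 and 1084 in PANC-1, and was called higher in irradiated SW1990. Of the other mesenchymal markers in that pair, VIM was called lower with 17 and 0 counts, FN1 was called higher with 0 and 25 counts, and CDH2, the neural cadherin, was too low to test with 0 and 4. MIR205HG, the host of miR-205, had 3 and 7 counts in SW1990 and none in PANC-1.

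MIR503HG, the host of miR-503 (chrX:134543337-134546632, minus strand), had 5 and 7 counts in SW1990 and 94 and 57 in PANC-1. The level in PANC-1 was 5.11 FPKM unirradiated and 3.45 FPKM irradiated, and the log2 change was -0.59 (-1.09 to -0.10) and was not called. MIR497HG, whose products miR-195 and miR-497 share the seed AGCAGCA, had no counts in SW1990 and 8 and 18 in PANC-1. Its log2 change there was 1.3 (0.03 to 2.71). Among the hosts of nerve, muscle and germ line microRNAs MIR9-3HG had 7 and 14 counts in PANC-1 and none in SW1990, and none of the 6 in the table reached 10 counts in the SW1990 pair.

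**Figure D2:**
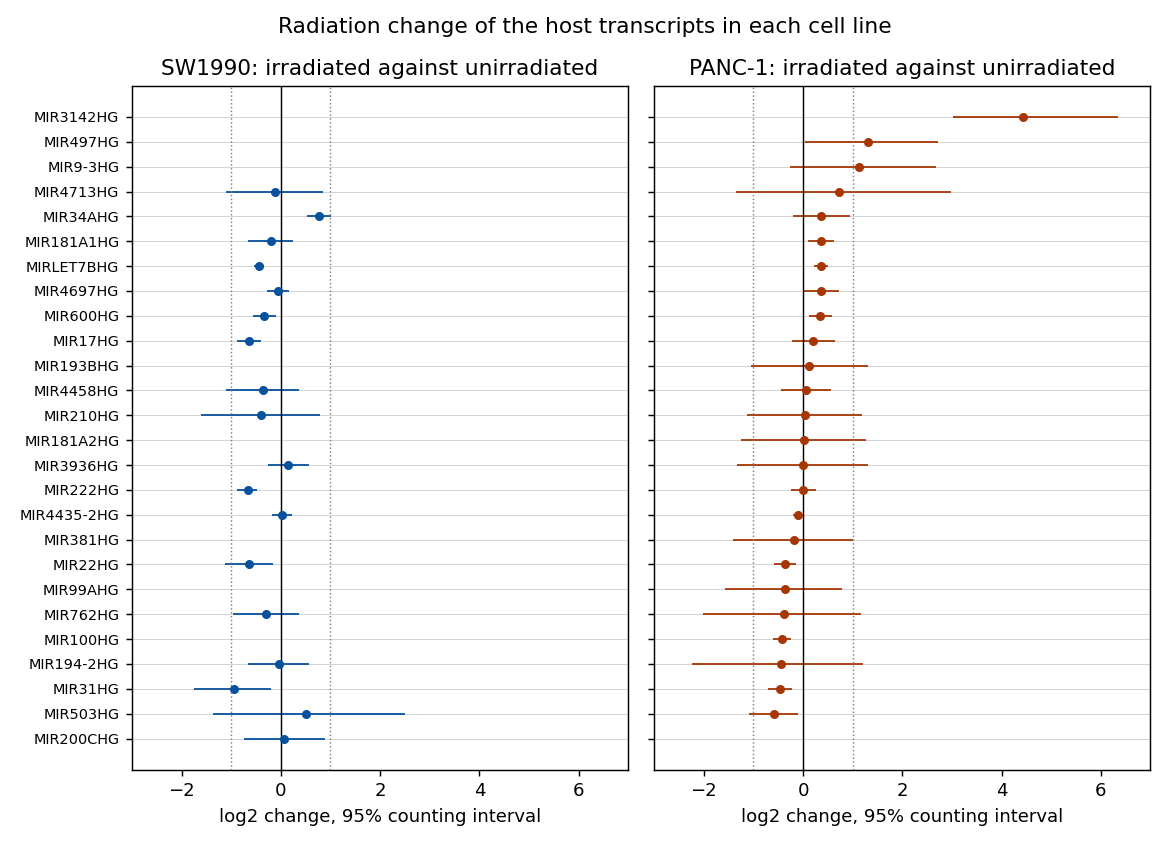
The log2 change from the unirradiated to the irradiated library is plotted with its exact 95% counting interval, for SW1990 on the left and PANC-1 on the right. Shown are hosts with at least 20 counts over the 4 libraries, at least 10 in the pair and a count in both its libraries. MIR205HG and MIR4500HG, tested with fewer than 20 counts, are not plotted. Dotted lines mark a 2-fold change. MIR3142HG in PANC-1 lies at 4.43, while the longest fall in SW1990 is MIR31HG at -0.95.

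Counted by their intervals alone, 1 of 19 hosts was higher in irradiated SW1990, against 26.0% of all genes, and 6 of 19 were lower, against 18.8% of all genes. The median log2 change of the 19 was -0.20, with 6 positive and 13 negative, against 0.02 over all genes tested. At a limit of 1.5-fold, MIR34AHG, MIR17HG and MIR222HG were called in SW1990, 3 of 19, against 8.83% of all genes. In PANC-1 the intervals of 5 of 26 hosts lay above 0, against 24.5% of all genes, and those of 4 lay below 0, against 26.0%. The median there was 0.02, with 16 positive and 10 negative, against -0.001 over all genes. Over all genes 538 were called higher and 341 lower in SW1990, and 526 higher and 424 lower in PANC-1; with total counts in place of TMM the PANC-1 split was 670 higher and 340 lower.

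In 2 of 17 hosts tested in both pairs the intervals lay on opposite sides of 0 in the lines, against 11.8% of genes. These were MIRLET7BHG and MIR600HG. MIR600HG, the host of miR-600 (chr9:123109494-123115477, minus strand), was named after its values were seen. It had 339 and 266 counts in SW1990 and 289 and 336 in PANC-1, or 2.57 and 1.98 FPKM and 1.66 and 2.24 FPKM. Its log2 change was -0.33 in SW1990 (-0.57 to -0.09) and 0.35 in PANC-1 (0.12 to 0.58). It lies inside STRBP on the same strand, and STRBP had a log2 change of -0.36 in SW1990 and -0.07 in PANC-1. In 2 other hosts, MIR22HG and MIR31HG, both intervals lay on the same side, below 0, against 17.4% of genes on the same side in either direction.

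A fit over all 4 libraries with the line as a covariate asked whether radiation moved a host the same way in both lines. It called none of 23 hosts and 0% of the 18180 genes tested (edgeR quasi-likelihood test, smallest adjusted p 0.718), with 0 hosts and 833 genes at an unadjusted p under 0.05. DESeq2 called 38 genes, 0.421% of those to which it gave an adjusted p, and no host. With 1 residual degree of freedom this fit has little power, and its common coefficient of variation was 0.218.

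The hosts that differed between the cell lines did so in both directions. A fit over the 4 libraries with treatment as a covariate called 16 of 23 hosts at an adjusted p below 0.05, against 43.6% of all genes. DESeq2 called 10 of these 16, out of 19 hosts to which it gave an adjusted p, against 34.2% of all genes by that tool. Of the 16, 8 were higher in SW1990, against 21.4% of genes, and 8 were higher in PANC-1, against 22.2%. Of the 23, 10 lay under the low-count filter in both libraries of a line and entered only through the other line, where they were high. Their counts thus had to differ, and their calls support nothing. Of all genes that entered through 1 line alone, 77.6% were called. The 7 of them that were called, MIR100HG, MIR194-2HG, MIR200CHG, MIR381HG, MIR503HG, MIR762HG and MIR99AHG, are given as a description, adjusted p-values included. Of the 13 hosts past the filter in both lines, a split made after the values were seen, 9 were called, against 37.2% of the genes past it in both lines, and DESeq2 called 8. Each line had 2 libraries that differ in treatment, nothing says that they came from separate cultures, and so the p-values measure only the spread between these libraries. Medium and line cannot be told apart.

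MIR100HG had the largest difference among the hosts called that were counted in all 4 libraries. It was 276-fold higher in PANC-1 than in SW1990 without radiation, from 615 against 2 counts (95% counting interval 76 to 2280). MIR31HG was 7.35-fold higher in PANC-1 unirradiated and 10.2-fold higher irradiated (adjusted p = 0.00321). MIR503HG was 16.9-fold higher unirradiated and 7.88-fold higher irradiated, with an adjusted p of 0.0092.

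MIR22HG and MIR4435-2HG were the other abundant hosts higher in PANC-1. The log2 difference, SW1990 over PANC-1, was -2.12 for MIR22HG (adjusted p = 0.0053). For MIR4435-2HG it was -1.58 (adjusted p = 0.00306). MIR181A1HG, the host of miR-181a-1 and miR-181b-1, had 91 and 78 counts in SW1990 and 229 and 270 in PANC-1, and its log2 difference was -1.45 (adjusted p = 0.0204, and 0.0601 by DESeq2). Within PANC-1 its log2 change with radiation was 0.37 (0.11 to 0.63), which was not called.

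Hosts with no count in SW1990 are given as bounds against a floor of 3 counts per library. The PANC-1 counts enter these bounds as observed, so their own counting error is left out and the bounds are not 95% limits. MIR381HG, a host within the imprinted microRNA cluster of chromosome 14, had no counts in SW1990 and 15 and 12 in PANC-1. It was at least 4.48-fold higher in unirradiated PANC-1 and at least 3.87-fold higher in irradiated PANC-1 (adjusted p = 0.0398, and 0.0768 with no filter on low counts). MIR99AHG was 15.2-fold higher in unirradiated PANC-1, from 17 counts against 1, with an interval from 2.39 to 637. With 1 count, fewer than the floor of 3, the size of this fold is known no better than the interval. It was at least 3.87-fold higher in irradiated PANC-1, from 12 counts against 0 (adjusted p over both treatments = 0.0361, and 0.0732 with no filter). Its FPKM values in PANC-1, 0.86 unirradiated and 0.133 irradiated, lay further apart than its counts of 17 and 12.

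Among the hosts higher in SW1990, MIR200CHG was at least 10-fold higher without radiation and at least 9.65-fold higher with it. These bounds use the same floor for PANC-1 and leave out the counting error of the SW1990 counts. The adjusted p of MIR200CHG was 0.0177 by edgeR and 0.0687 by DESeq2. MIR194-2HG had a log2 difference of 2.75 (adjusted p = 0.016), and was 5.95-fold higher in SW1990 unirradiated (2.89 to 13.8) and 7.93-fold higher irradiated (3.38 to 22.7). DESeq2 gave it an adjusted p of 0.08. MIR34AHG had a log2 difference of 2.51 (adjusted p = 0.00437), or 3.13 from FPKM values, and MIR17HG of 1.80 (adjusted p = 0.0144). MIRLET7BHG was 3.01-fold higher in SW1990 without radiation and 1.73-fold higher with it (adjusted p = 0.018).

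The remaining 3 called hosts were also higher in SW1990. MIR3936HG, antisense to SLC22A4 and the carnitine transporter gene SLC22A5, had 96 and 105 counts in SW1990 and 12 and 11 in PANC-1. Its log2 difference was 3.22 (adjusted p = 0.00545), or 4.02 from FPKM values. Of the genes that MIR3936HG overlaps on the other strand, SLC22A5 had a log2 difference of 1.72. SLC22A4, a related transporter, went the other way with -2.24 (adjusted p = 0.0248, and 0.116 by DESeq2). MIR762HG, antisense to BCL7C, had 46 and 37 counts in SW1990 and 10 and 7 in PANC-1 (log2 difference 2.39, adjusted p = 0.0231, and 0.146 by DESeq2). MIR4697HG had 358 and 341 counts in SW1990 and 116 and 136 in PANC-1 (log2 difference 1.58, adjusted p = 0.0104). The hosts tested and not called were MIR222HG (adjusted p = 0.054), MIR600HG, MIR4458HG, MIR210HG, MIR4713HG, MIR193BHG and MIR181A2HG.

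**Figure D3:**
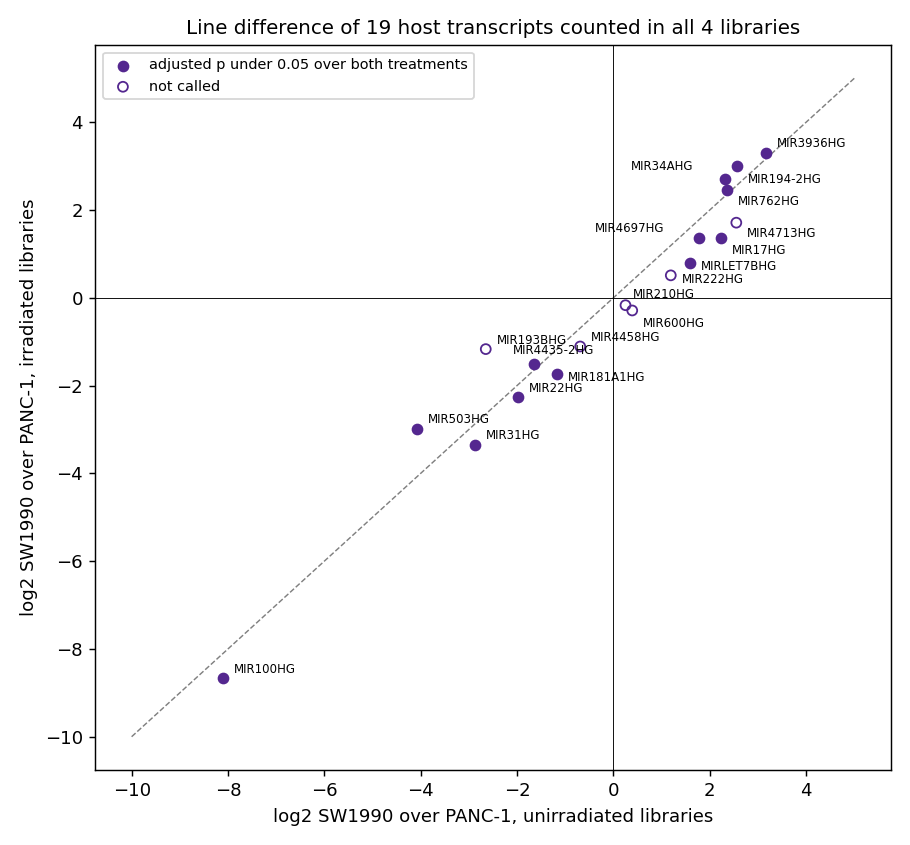
The log2 ratio of SW1990 over PANC-1 in the unirradiated libraries (horizontal) is plotted against that in the irradiated libraries (vertical) for the 19 hosts counted in all 4 libraries; filled points were called over both treatments and the dashed line marks equal ratios. MIR100HG lies lowest at -8.11 and -8.67, and MIR3936HG highest at 3.16 and 3.30.

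The genes that process microRNAs were compared beside the hosts, as a list of 19. None was called in either radiation pair, against 4.58% of all genes in SW1990 and 5.02% in PANC-1. Their median log2 change was -0.10 in SW1990 against 0.02 over all genes, and -0.16 in PANC-1 against -0.001. The intervals of 10 of 18 lay below 0 in SW1990, against 18.8% of all genes, and those of 14 of 19 in PANC-1, against 26.0%, while 2 lay above 0 in each line. By line, 6 of 19 were called, 31.6%, beside the 43.6% of all genes. LIN28B, which blocks the maturation of let-7, had no counts in SW1990 and 1215 and 995 in PANC-1. It is among the 6, but it entered only through PANC-1 and had to differ, so its call supports nothing. TNRC6C, a scaffold of silencing complexes, was higher in SW1990 with a log2 difference of 3.27, and AGO1, an Argonaute, was higher in PANC-1 with -1.47. DROSHA had 1958 and 2548 counts in SW1990 and 2279 and 1812 in PANC-1. DICER1 had 2315 and 2485 counts in SW1990 and 3560 and 2628 in PANC-1.

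Protein-coding genes that carry microRNAs were taken as a list of 28, which includes IARS2 although its microRNAs lie on the other strand. In SW1990 1 of 28 was called and in PANC-1 none, against 4.58% and 5.02% of all genes. LPP, the host of miR-28, was the gene called, higher in irradiated SW1990 with 1774 and 4500 counts, although its FPKM went only from 17.3 to 19.6. Their median log2 change was 0.03 in SW1990 and 0.01 in PANC-1. By line 14 of 28 were called, 7 in each direction, 50% against the 43.6% of all genes. Of 21 hosts of small nucleolar RNAs tested in each radiation pair, SNHG20 alone was called, lower in SW1990 with 452 and 156 counts. All genes were called at 4.58% in SW1990 and 5.02% in PANC-1. By line 9 of 22 were called, 40.9% against the 43.6% of all genes, with 6 higher in SW1990, against 21.4%. Among the 9 were SNHG14, with no counts in SW1990, and SNHG18, with none in PANC-1. Both entered only through the other line and had to differ, so their calls support nothing.

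The 13 hosts with 1 to 19 counts held at most 12 counts over the 4 libraries, in MIR4500HG, and 18 hosts had none. With no counts, up to 0.168 CPM would have been missed in unirradiated SW1990 and up to 0.129 in unirradiated PANC-1, on counting error alone. The rows of the microRNA hairpins themselves held few counts. MIR3619, within MIRLET7BHG, had 46 and 25 counts in SW1990 (log2 change -0.86, -1.62 to -0.13, not called) and 12 and 12 in PANC-1. MIR22 had 8 and 1 counts in SW1990 and 46 and 38 in PANC-1, and MIR221 had 16 and 16, and 19 and 18. MIR194-2 had 1 count, in unirradiated SW1990, MIR34A had 1 in each library, and MIR18A, the most counted within MIR17HG, had 20 and 12 counts in SW1990 and 1 and 4 in PANC-1. MIRLET7B, in an exon of MIRLET7BHG, had 15 and 15 counts in SW1990 and 1 and 18 in PANC-1. It was called higher in irradiated PANC-1 (log2 change 4.30, 1.64 to 9.68, q = 0.000163 by the exact test on the 2 libraries). The change of its host there was 0.37. The call rests on 1 count in the unirradiated library, fewer than the floor of 3 counts. Reads shared by MIRLET7B and its host could not be told apart.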

How the data were processed

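The authors trimmed reads with Trimmomatic 0.36, aligned them to GRCh38 with HISAT2 2.0 and assembled and quantified transcripts with StringTie 1.3.3b, according to the submitters' processing notes and the study's methods. The deposited table held whole-number read counts per gene, and FPKM values that the authors normalised by transcript length and mapped fragments; the tool that made the counts is not given in the sources used here. Its 59263 rows included 1089 loci without a gene name, which took 0.453% to 0.635% of counts and entered neither the library sizes nor any test. Columns of other samples numbered 0.

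The members, lists and tests were chosen with earlier results of these data known. Hosts named with full values were MIR194-2HG, MIR17HG and MIR22HG, each host called in a comparison, and the 5 with the highest mean FPKM; others are given by group. Each pair of libraries was tested with edgeR 4.0.16 (exact test with no dispersion, TMM scaling, Benjamini-Hochberg over genes with at least 10 counts in the pair) in R 4.3.3, and called at q below 0.001 and fold over 2. Intervals were Clopper-Pearson at 95%. The difference of changes used 0.5 added to each count. All 4 libraries were fitted with edgeR's quasi-likelihood test and called at an adjusted p below 0.05, and DESeq2 1.42.0 was an alternative. Reads carry no molecular identifiers, so intervals and floors cover counting error only. The pair test with its interval and the line term of edgeR's fit were run first on simulated counts. That fit was simulated at a smaller spread between libraries than these data gave. The radiation term, the DESeq2 tests and the difference of changes were not simulated. Sequences and promoter windows were read from RefSeq on GRCh38.p14; 44 hosts had a window. Some genes of the lists are not reported here.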

Additional observations from a re-analysis of the deposited data

Results flagged for a closer look

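A pair of hosts had counting intervals on opposite sides of 0 in the lines. For MIRLET7BHG the log2 change in SW1990 minus that in PANC-1 was -0.80 (95% counting interval -0.97 to -0.62), from -0.43 in SW1990 and 0.37 in PANC-1. For MIR600HG it was -0.68 (-1.0 to -0.35), from -0.33 and 0.35. With 1 library of each kind the difference was not tested over replicates, and 11.8% of all genes tested in both pairs showed the same pattern. Reads shared by MIR600HG and STRBP could not be told apart, and their part in the result was not tested.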

How the results depend on the processing

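With 1 library per group no replicate could be left out, and the fit of radiation with the line as a covariate was the analysis paired by line. A limit of 1.5-fold gave 1694 genes and 3 hosts in SW1990 and 2016 genes in PANC-1. An assumed coefficient of variation of 0.2 gave 121 genes in SW1990 and 129 in PANC-1, and MIR3142HG stayed called. DESeq2 called 38 genes for radiation over both lines, and 6105 genes and 10 hosts for the line difference: MIR181A1HG, MIR194-2HG, MIR200CHG and MIR762HG were lost, and MIR381HG and MIR99AHG had no adjusted p. With no filter on low counts MIR381HG and MIR99AHG were lost and MIR3142HG was gained, and with DESeq2 size factors MIR222HG was gained. With total counts the log2 change of MIR4435-2HG in SW1990 turned to -0.04, inside its interval. Chosen after seeing the data, FPKM values gave -0.57 for the difference of MIRLET7BHG between the lines; total counts left the differences of MIRLET7BHG and MIR600HG inside their intervals. Counts by interval alone were also added after seeing the data. The causes of these shifts were not tested. The ratio of FPKM values lay outside the counting interval for 2 of 18 hosts in SW1990 and 1 of 25 in PANC-1. For the line difference, FPKM values gave 3.13 for MIR34AHG, 4.02 for MIR3936HG and -9.38 for MIR100HG, against 2.51, 3.22 and -8.21. They gave smaller differences for MIR22HG, -1.85 against -2.12, and for MIR4435-2HG, -1.47 against -1.58. MIR210HG, which was not called, turned from 0.05 to -0.44. Depth limits the hosts with few counts, such as MIR194-2HG in PANC-1 (-2.23 to 1.20).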
